A study of Mus musculus with 20 samples.

Results

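Dermal fibroblasts of old female mice that were on caloric restriction for the last 7 months were compared with those of old female mice kept on a normal diet. The arrays were chosen by their labels, 5 of the restricted group (Old CR) and 5 of the normal diet group (Old ND), which makes 10 of the 20 arrays of the series. The labels call the 5 of a group biological replicates and do not say whether an array holds 1 mouse or several. Both groups were 9 months old at the start and 18 months old when the skin was taken. The normal diet was fed freely for all 9 months in Old ND. In Old CR it was fed for 2 months, and for the next 7 months the ration was cut by 30%, so that restriction began late and lasted to the end. Another 5 arrays, used below only where named, come from mice that had their 7 months of 30% restriction first and then 2 months of normal diet (Old CR-ND, also collected at 18 months). The last 5 come from young mice (Young ND), 4 weeks old at the start of 4 weeks on the normal diet. The labels name no genetic change in any group, and the strain is not given in the sources used here. Collagenase was used to free the cells from skin without its subdermis, and each array holds the amplified RNA of 10000 cells sorted for Pdgfra and CD34 on their surface and against CD45, CD117, CD24, CD31 and EpCAM. The cells are therefore a gated share of the dermal fibroblasts, and a change in the mix of fibroblast types within the gate and a change of RNA level within each cell cannot be told apart.

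Fibroblasts build and renew the dermis: they secrete fibrillar collagens, basement membrane parts, proteoglycans and growth factor binding proteins, and they signal to hair follicles and immune cells. Caloric restriction lowers circulating insulin and insulin-like growth factor 1 (IGF1) in rodents and thins the skin. Cells sense sterol supply through SREBP2, a transcription factor that stays bound in the endoplasmic reticulum while sterols are plentiful and otherwise switches on the enzymes of cholesterol synthesis and the genes of sterol uptake.

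Values are log2 array levels, a difference is Old CR minus Old ND with the standard error from limma (n = 5 arrays per group), and a group mean is given ± SD. Each adjusted p is limma's, after Benjamini-Hochberg adjustment over 17097 genes, and a gene is said to have risen or fallen where it was under 0.05. Levels of different genes cannot be set against each other, since probes differ in brightness. The numbers in the array labels form 2 separate runs. Old CR replicates 1 to 4 and Old ND replicates 1 to 3 belong to the lower run, called run A here, and Old CR replicate 5 and Old ND replicates 4 and 5 to the higher, run B. With the groups held, 2934 genes differed between the runs at an adjusted p under 0.05. The first principal component of the 10 arrays held 28.2% of the variance. It put the 5 Old CR arrays between -16.41 and -9.15, Old ND replicates 1, 2 and 3 at 21.68, 12.58 and 26.76, and Old ND replicates 4 and 5 at 1.10 and 1.33. Old ND replicate 2 stood apart on the third component and had the lowest weight of the 20 arrays (0.326) when limma estimated weights. The sorting marker Cd34 averaged 11.23 ± 0.13 in Old CR and 11.01 ± 0.20 in Old ND (adjusted p = 0.219), and Pdgfra 5.90 ± 0.21 and 6.20 ± 0.37 (adjusted p = 0.449), so both were measured and neither passed the test. Of the genes sorted against, Ptprc (CD45), Kit (CD117), Cd24a, Pecam1 (CD31) and Epcam, none passed, and Cd24a came closest (-0.73 ± 0.21, adjusted p = 0.074).

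Late restriction was accompanied by a change in 409 of 17097 genes, 2.39% of those tested, of which 269 rose (1.57%) and 140 fell (0.819%). A change of at least 2-fold was seen in 55 of them, 24 higher and 31 lower in Old CR, and the median size of a called difference was 0.59. Not all calls were firm: 146 genes (0.854%), 101 higher and 45 lower, stayed under 0.05 when each of the 10 arrays was left out in turn. Such calls are described below as held, and for the others the arrays that end the call are named by group and replicate number. The count of calls fell to between 201 and 267 without any 1 of Old CR replicates 1 to 4 or Old ND replicates 1 and 3. The arrays of both groups did not overlap for 553 genes (3.23%), among them 290 of the 409. Lack of overlap is thus usual for a called gene, and where given below it is a description and not a further test. Of the genes above the median level 3.84% were called, and of the others 0.947%. An unadjusted limma p under 0.05 was found for 2477 of the 17097 genes, and such counts in the lists below are to be read beside this. Within run A alone 536 genes were higher and 259 lower in Old CR. Run B, with its single Old CR array, gave 1 call. All 409 differences had the same sign in run A and 399 in run B, and their median size was 0.68 and 0.34. Both runs are parts of the arrays that chose these genes, so the shared sign is not a further test. With a term for the run in the fit 451 genes were higher and 260 lower. The 140 lower genes were not evenly high in Old ND: 66 of them had their highest Old ND level in replicate 3 and 47 in replicate 1. The median excess of those genes over the Old CR mean was 0.93 in Old ND replicate 3, 0.88 in replicate 1, 0.55 in replicate 4, 0.49 in replicate 2 and 0.45 in replicate 5. Old CR-ND against Old ND gave 1 call, Rian (0.00585%). With Old ND replicates 1 and 3 both left out, a check chosen after the data were seen, all 409 differences kept their sign and 131 genes were called, 95 higher and 36 lower. The kept sign is again no further test, since the remaining arrays had helped to choose the 409.

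**Figure D1:**
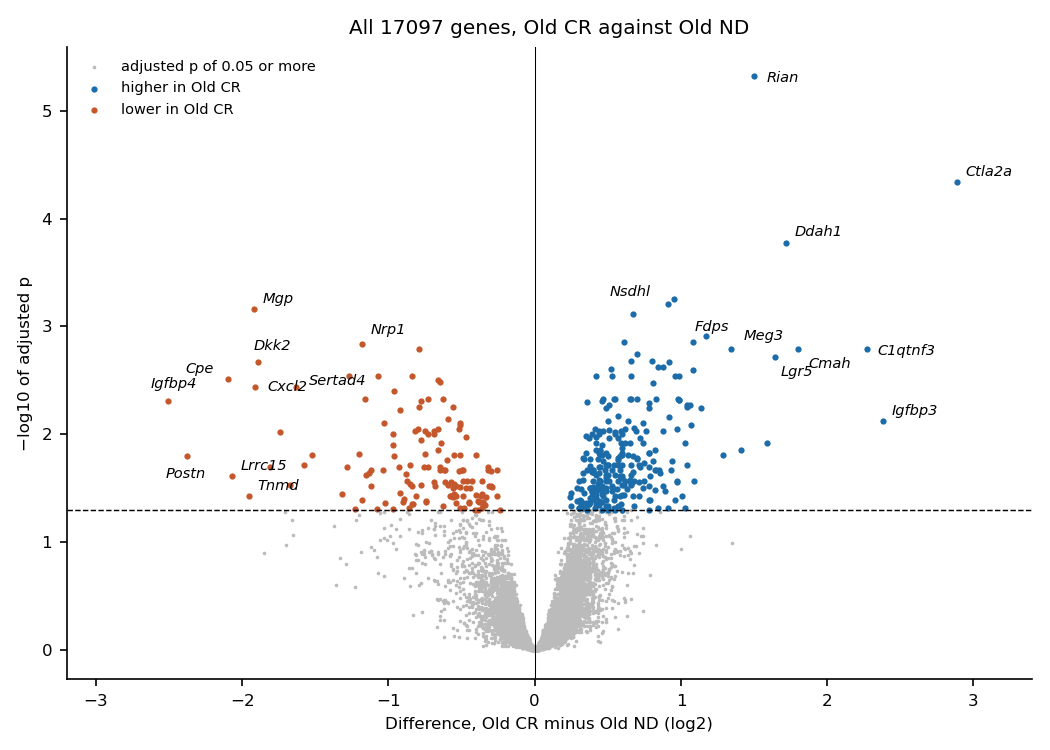
Each point is 1 of 17097 genes, with the difference Old CR minus Old ND on the log2 scale along the horizontal axis and −log10 of the adjusted p up the vertical axis, where the dashed line marks 0.05. Ctla2a and Igfbp3 lie farthest to the right, Igfbp4 and Postn farthest to the left, and Rian highest.

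Both ends of the ranking held a binding protein of the insulin-like growth factors. Igfbp3 carries most IGF1 in blood and binds it in tissue. Its level was 9.72, 9.86, 9.57, 8.55 and 8.65 in Old CR replicates 1 to 5 and 7.89, 6.09, 6.20, 7.01 and 7.25 in Old ND replicates 1 to 5. It rose by 2.38 ± 0.45 (5.21-fold, adjusted p = 0.00758), a call that held, and the arrays of the groups did not overlap. Igfbp4, which binds IGF1 and keeps it from its receptor until a protease cuts it, moved the other way. Its level was 6.51, 7.26, 7.20, 5.72 and 7.69 in Old CR and 10.07, 8.64, 10.46, 9.27 and 8.50 in Old ND, in the same order of replicates. It fell by 2.51 ± 0.45 (5.7-fold, adjusted p = 0.00489), again without overlap, and the highest levels were those of Old ND replicates 3 and 1. The call of Igfbp4 held without each array, and it ended with both of those arrays left out (-1.93, adjusted p = 0.0596). For the average of its 6 probe sets Igfbp4 changed by -1.79 (adjusted p = 0.0162). Runs A and B gave differences of 2.70 and 1.52 for Igfbp3 and -3.05 and -1.20 for Igfbp4.

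These were the only called members of 19 measured genes of the IGF axis (10.5%, against 2.39% over all genes). The median difference of that list was -0.04, beside 0.004 over all genes. The growth factor Igf1 averaged 10.24 ± 0.12 in Old CR and 10.72 ± 0.23 in Old ND (-0.49 ± 0.14, adjusted p = 0.062). Its groups did not overlap, and it passed for the average of its 4 probe sets (-0.73, adjusted p = 0.0161) and with a term for the run (adjusted p = 0.0358). Igf2, the fetal growth factor, differed by 0.00 ± 0.17 (adjusted p = 0.996). The receptor Igf1r (0.21 ± 0.10, adjusted p = 0.361) and its docking protein Irs1 (0.36 ± 0.17, adjusted p = 0.334) did not pass, nor did the binding proteins Igfbp5 (0.21 ± 0.12) and Igfbp6 (-0.15 ± 0.20). Larger differences that also missed were those of Igfbp2 (-1.06 ± 0.33, adjusted p = 0.0952) and the insulin receptor Insr (0.57 ± 0.17, adjusted p = 0.0754). All 4 measured receptors and adaptors had differences above 0 (median 0.37), with 3 at an unadjusted limma p under 0.05. Downstream, 1 of 35 measured genes of FOXO and mTOR nutrient sensing passed (2.86%, near the 2.39% over all genes). It was Ddit4, an inhibitor of mTOR complex 1 that is induced by stress, and it rose by 0.71 ± 0.16 (adjusted p = 0.0193). Its call ended on leaving out Old CR array 3 or 4 (adjusted p 0.0593 to 0.0613).

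The rise with the largest size was that of Ctla2a, which encodes an inhibitor of cathepsin-like cysteine proteases. Old CR replicates 1 to 5 lay at 9.84, 9.71, 10.74, 10.88 and 9.00, while the 5 Old ND arrays lay within 0.15 of each other, at 7.07, 7.21, 7.11, 7.12 and 7.22. The difference was 2.89 ± 0.30 (7.4-fold, adjusted p = 4.57e-05), and it held. Ctla2a belongs to a family of near-identical sequences, so its signal may include relatives. The probe set of the closest relative, Ctla2b, which was named after its values were seen, averaged 4.22 ± 0.07 and 4.33 ± 0.25 and did not pass (adjusted p = 0.717), with both means below the lower quartile of all genes (4.54). The difference of Ctla2a was 3.16 in run A and 1.83 in run B.

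C1qtnf3 (CTRP3), a secreted protein with the C1q domain that adiponectin also has, followed Igfbp3 in size. It was at 8.47, 8.35, 8.48, 9.19 and 8.55 in Old CR and at 5.50, 6.26, 5.84, 7.14 and 6.95 in Old ND, a rise of 2.27 ± 0.33 (4.82-fold, adjusted p = 0.00161) that held. All Old CR arrays lay above all Old ND arrays, and the Old ND arrays of run B lay above those of run A. Among 8 measured genes of the C1q/TNF-related family 1 other passed, C1qtnf12, which fell by 0.59 ± 0.14 (adjusted p = 0.0294) with overlap between the groups. The call of C1qtnf12 ended on leaving out any single array but Old CR array 4 or 5 or Old ND array 1 or 2 (adjusted p 0.0513 to 0.0837).

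Of 16 measured genes in a list of nitric oxide and arginine enzymes and guanylate cyclases 2 rose and 0 fell. Both calls held, and the share called was 12.5%, against 2.39% over all genes. Ddah1 breaks down asymmetric dimethylarginine, an inhibitor of nitric oxide synthases. Its level was 9.81, 9.58, 9.24, 9.59 and 9.06 in Old CR and 7.39, 8.18, 7.29, 8.15 and 7.69 in Old ND, and it rose by 1.72 ± 0.20 (3.29-fold, adjusted p = 0.000167). Npr1, the receptor for atrial natriuretic peptide, is in the list as a guanylate cyclase, which makes the messenger cyclic GMP. It was at 6.97, 7.55, 7.31, 7.18 and 6.46 in Old CR and 6.17, 5.55, 5.88, 6.28 and 6.20 in Old ND, a rise of 1.08 ± 0.17 (adjusted p = 0.00255). Neither gene overlapped between the groups, and the Old CR array of run B was the lowest of its group for both. The median difference of the list was 0.01.

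The other large rises were of genes of mixed function. Cmah, which converts sialic acid to its N-glycolyl form, rose by 1.80 ± 0.27 (adjusted p = 0.00161), with 2.35 in run A and 0.46 in run B, and by 0.89 for the average of its 4 probe sets. Prdm8, a nuclear regulator with a PR domain, rose by 1.59 ± 0.32 (adjusted p = 0.0119). Kcnj8, the pore subunit of an ATP-sensitive potassium channel that also marks pericytes, rose by 1.29 ± 0.27 (adjusted p = 0.0156). None of the 6 other measured pericyte and smooth muscle markers passed, and their differences lay between -0.11 and 0.07. The mean of all 7, Kcnj8 included, was 5.64 to 5.74 in Old CR arrays and 5.36 to 5.63 in Old ND arrays, with a median difference of -0.06, and the part of such cells in the rise was not tested. Nkain4, which binds the sodium pump, rose by 1.14 ± 0.21 (adjusted p = 0.00565), and the splicing regulator Nova1 by 1.07 ± 0.20 (adjusted p = 0.00822). None of these 5 genes overlapped between the groups and their calls held, but with Old ND replicates 1 and 3 both left out those of Prdm8, Kcnj8, Nkain4 and Nova1 ended (adjusted p = 0.0838, 0.11, 0.0675 and 0.0692). That of Prdm8 also ended when only the 10 arrays were fitted (adjusted p = 0.063). The secreted protein Lgi1 rose by 1.09 ± 0.26 (adjusted p = 0.027), and its call ended on leaving out Old CR array 2 or 4 or Old ND array 1 or 3 (adjusted p 0.0565 to 0.0801).

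**Figure D2:**
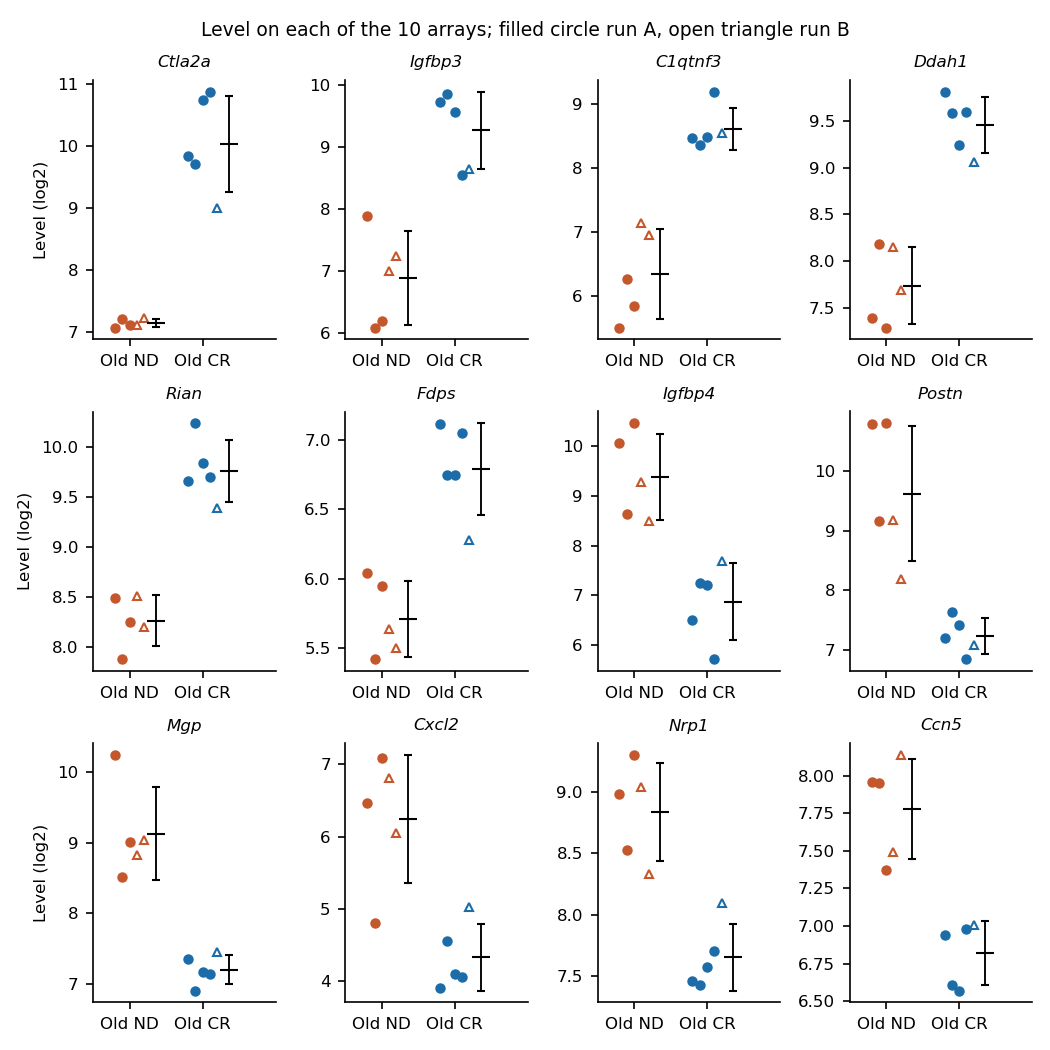
Each panel shows the log2 level of 1 gene on the 5 Old ND arrays (orange) and the 5 Old CR arrays (blue), left to right by replicate, with filled circles for run A, open triangles for run B, and the mean ± SD in black. The groups are separate for every gene shown but Cxcl2, for which Old ND replicate 2 (4.81) lies below Old CR replicate 5 (5.03).

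The enzymes of cholesterol synthesis held the largest share of called genes among the 51 pathway lists. Of 17 measured genes 7 rose and 0 fell, 41.2% against 1.57% higher over all genes, and 15 of the 17 differences were above 0. The median difference was 0.37, and it stayed above 0 in run A (0.38), in run B (0.30) and with a term for the run (0.35). The number called ranged from 3 to 8 as each array was left out. Fdps makes farnesyl diphosphate, the branch point between sterols and protein prenylation. Its level was 7.12, 6.75, 6.75, 7.05 and 6.28 in Old CR and 6.04, 5.42, 5.95, 5.64 and 5.50 in Old ND. It rose by 1.08 ± 0.15 (2.11-fold, adjusted p = 0.00138), and the lowest Old CR array was above the highest Old ND array. Nsdhl, which helps to remove methyl groups from the sterol ring, was at 7.17, 7.10, 7.16, 7.25 and 6.70 in Old CR and 6.14, 6.13, 6.33, 6.25 and 5.97 in Old ND, a rise of 0.91 ± 0.12 (adjusted p = 0.000618). Fdft1 (squalene synthase) joins farnesyl units in the first step committed to sterols. It was at 6.71, 6.19, 6.66, 6.50 and 6.17 in Old CR and 5.87, 5.87, 5.88, 5.75 and 5.62 in Old ND, and rose by 0.65 ± 0.11 (adjusted p = 0.00466). Groups did not overlap for any of these 3 genes, and the 3 calls held.

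The other 4 called enzymes were those whose calls did not hold. Dhcr7, which makes cholesterol in the last step, rose by 0.58 ± 0.13 (adjusted p = 0.0213), a call that ended on leaving out Old CR array 1 or 4 or Old ND array 1 or 2 (adjusted p 0.0519 to 0.0605). Idi1, the isomerase of the isoprenoid unit, rose by 0.75 ± 0.18 (adjusted p = 0.027), and its call ended on leaving out Old CR array 2, 3 or 4 or Old ND array 2 or 5 (adjusted p 0.0552 to 0.0869). For the desaturase Sc5d (0.88 ± 0.21, adjusted p = 0.0302) it ended on leaving out any single array but Old CR array 5 or Old ND array 1 or 3 (adjusted p 0.0546 to 0.0898). For mevalonate kinase Mvk (0.50 ± 0.13, adjusted p = 0.0499) it ended on leaving out any single array but Old CR array 5 or Old ND array 3 (adjusted p 0.0832 to 0.132). The groups overlapped for all 4. Other steps did not pass: Hmgcs1, an early enzyme, differed by -0.01 ± 0.10 (adjusted p = 0.974) at a level of 4.29 to 4.31, below the lower quartile of all genes (4.54). Cyp51 (0.37 ± 0.15, adjusted p = 0.231) and Sqle (0.38 ± 0.26, adjusted p = 0.552) had high levels in Old ND replicates 1 and 3. With those arrays left out Cyp51 differed by 0.62 (adjusted p = 0.0284) and Sqle by 0.90 (adjusted p = 0.0389).

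Of 18 measured genes of sterol sensing, uptake and efflux 2 rose and 0 fell (11.1% called, against 2.39% over all genes). The median difference was 0.12. Stard4, which carries cholesterol between membranes, was at 6.08, 5.70, 6.27, 6.12 and 5.62 in Old CR and 5.01, 4.55, 5.42, 5.20 and 4.70 in Old ND. It rose by 0.98 ± 0.17 (adjusted p = 0.00466) without overlap, and the call held. Insig1, which keeps SREBP in the endoplasmic reticulum and is itself a target of it, rose by 0.65 ± 0.15 (adjusted p = 0.0262) with overlap. This call ended on leaving out Old CR array 1, 3 or 4 or Old ND array 2 or 3 (adjusted p 0.0505 to 0.0666). Srebf2, which encodes SREBP2, averaged 7.51 ± 0.35 in Old CR and 7.03 ± 0.34 in Old ND (adjusted p = 0.199), and it passed for the average of its 2 probe sets (0.57, adjusted p = 0.0375).

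Fatty acid synthesis followed with 3 risen and 0 fallen of 16 measured genes (18.8% called, against 2.39% over all genes). The median was 0.18, with 0.22 in run A and 0.01 in run B. Acss2 makes acetyl-CoA from acetate, the building block of both sterols and fatty acids. Its level was 6.50, 6.11, 6.67, 6.48 and 6.10 in Old CR and 5.55, 5.64, 5.63, 5.94 and 5.83 in Old ND, and it rose by 0.65 ± 0.13 (adjusted p = 0.0119), a call that held and that ended with Old ND replicates 1 and 3 both left out (0.57, adjusted p = 0.0979). Fads1, a desaturase of long fatty acids, rose by 0.97 ± 0.23 (adjusted p = 0.027). It was no longer called on leaving out any single array but Old CR array 5 or Old ND array 3 (adjusted p 0.0504 to 0.0846) and for the average of its 2 probe sets (0.41, adjusted p = 0.117). The citrate carrier Slc25a1 rose by 0.78 ± 0.21 (adjusted p = 0.0497), and its call ended on leaving out any single array but Old CR array 5 or Old ND array 3 (adjusted p 0.0613 to 0.129). The stearoyl-CoA desaturase Scd1 (0.74 ± 0.21, adjusted p = 0.0743) and the fatty acid synthase Fasn (0.35 ± 0.11, adjusted p = 0.0956) did not pass. Both differed by more in run A (1.13 and 0.51) than in run B (-0.05 and -0.08), and Scd1 passed with a term for the run (adjusted p = 0.00713).

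Of 21 measured genes of fatty acid oxidation and ketone use 1 passed (4.76%, against 2.39% over all genes). It was the hydratase Echs1, which rose by 0.42 ± 0.11 (adjusted p = 0.0367). Its call ended on leaving out any single array but Old CR array 5 or Old ND array 1 or 4 (adjusted p 0.067 to 0.106). Of 22 adipogenic genes 1 passed (4.55%), the transcription factor Cebpa, which fell by 0.63 ± 0.17 (adjusted p = 0.0456). That call ended on leaving out any single array but Old ND array 5 (adjusted p 0.0509 to 0.133). Pparg, the main switch of fat cell formation, named after its values were seen, differed by 0.00 ± 0.09 (adjusted p = 0.992). None of 8 apolipoproteins passed in limma, and 1 of them had an unadjusted p under 0.05.

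**Figure D3:**
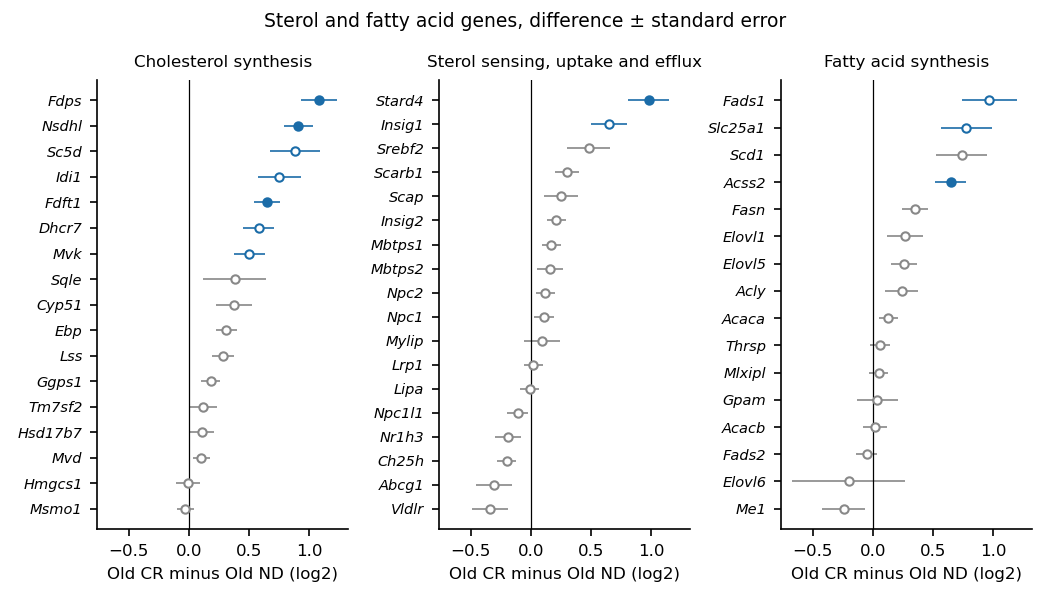
Points are the log2 differences Old CR minus Old ND of every measured member of 3 lipid lists, with bars of 1 standard error. Blue marks genes under an adjusted p of 0.05 and a filled point a call that held without each array, which was the case for Fdps, Nsdhl, Fdft1, Stard4 and Acss2.

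Among 23 measured imprinted genes 3 rose and 0 fell (13% called, against 2.39% over all genes). The calls held, and the median difference was 0.02. Rian and Meg3 are long noncoding RNAs made from the maternal copy of the Dlk1-Dio3 locus. Rian had the smallest adjusted p of all genes: its level was 9.66, 10.24, 9.84, 9.70 and 9.39 in Old CR and 8.49, 7.88, 8.25, 8.51 and 8.20 in Old ND, and it rose by 1.50 ± 0.13 (2.83-fold, adjusted p = 4.76e-06). Meg3 was at 10.83, 11.25, 10.76, 10.52 and 10.04 in Old CR and 9.83, 9.27, 9.55, 9.24 and 8.80 in Old ND, and it rose by 1.34 ± 0.20 (2.54-fold, adjusted p = 0.00161). For both the 2 groups were apart in each run, and the differences were 1.65 and 1.03 for Rian and 1.29 and 1.02 for Meg3. The mean of the 4 probe sets of Rian rose by 1.56 and that of the 10 of Meg3 by 1.32. Mirg, another noncoding RNA of the locus, averaged 6.62 ± 0.42 and 5.96 ± 0.31 and did not pass (0.66 ± 0.31, adjusted p = 0.331). The paternally expressed Dlk1 of that locus differed by -0.03 ± 0.12 (adjusted p = 0.958). Plagl1, a zinc finger regulator of other imprinted genes, was at 10.89, 11.18, 10.95, 10.76 and 10.82 in Old CR and 10.50, 10.35, 9.92, 10.63 and 10.46 in Old ND. It rose by 0.55 ± 0.11 (adjusted p = 0.00944) without overlap, and it did not pass when only the 10 arrays were fitted (adjusted p = 0.0635). The growth restrainers Cdkn1c (0.40 ± 0.12, adjusted p = 0.0809) and Grb10 (0.31 ± 0.10, adjusted p = 0.132) did not pass, and Cdkn1c did with a term for the run (0.43, adjusted p = 0.0426).

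Postn (periostin), a matricellular protein of collagen-rich and wounded tissue, followed Igfbp4 in the size of its fall. It was at 7.21, 7.64, 7.42, 6.85 and 7.09 in Old CR and at 10.78, 9.16, 10.80, 9.18 and 8.20 in Old ND. It fell by 2.38 ± 0.51 (5.21-fold, adjusted p = 0.0157), and every Old CR array lay below every Old ND array. Its Old ND level was uneven, with replicates 1 and 3 more than 1.5 above the others, and without both of them the difference was -1.60 (adjusted p = 0.137). Mgp (matrix Gla protein), an inhibitor of calcification, had the smallest adjusted p of the genes that fell. Its level was 7.35, 6.91, 7.18, 7.14 and 7.46 in Old CR and 10.24, 8.52, 9.01, 8.82 and 9.03 in Old ND, and it fell by 1.92 ± 0.25 (3.77-fold, adjusted p = 0.000692). Without those arrays the difference was -1.58 (adjusted p = 0.00251).

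Cpe, which trims prohormones, was at 5.90, 6.01, 7.03, 6.48 and 6.86 in Old CR and 8.92, 8.30, 9.87, 8.19 and 7.48 in Old ND, and it fell by 2.10 ± 0.35 (adjusted p = 0.00309). Nrep, a small protein of wound fibroblasts, fell by 1.74 ± 0.34 (adjusted p = 0.00942), and Sertad4, a nuclear protein, by 1.63 ± 0.27 (adjusted p = 0.00361). Neither these 3 genes nor Postn and Mgp overlapped between the groups, and the 5 calls held. The call of Nrep ended with Old ND replicates 1 and 3 both left out (-1.36, adjusted p = 0.0938).

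In another 6 large falls Old ND replicates 1 and 3 stood well above the other Old ND arrays. Lrrc15, a membrane protein of fibroblasts activated by TGF-beta, was at 6.02, 5.90, 5.91, 5.66 and 5.92 in Old CR and 9.10, 7.46, 9.53, 7.34 and 6.31 in Old ND and fell by 2.07 ± 0.48 (adjusted p = 0.0242). Tnmd (tenomodulin), a tendon membrane protein, was at 7.33, 7.63, 7.63, 7.25 and 7.27 in Old CR and 10.38, 8.96, 10.93, 8.48 and 8.13 in Old ND and fell by 1.95 ± 0.49 (adjusted p = 0.0373). These 2 arrays were also the highest for Actn1, an actin crosslinker (-1.81 ± 0.40, adjusted p = 0.0199), for the water channel Aqp1 (-1.67 ± 0.40, adjusted p = 0.0294), for Fscn1, an actin bundler (-1.58 ± 0.35, adjusted p = 0.0193), and for the thrombin receptor F2r (-1.32 ± 0.33, adjusted p = 0.0354). No Old CR array overlapped with Old ND for any of the 6, and none of them passed with both arrays left out (adjusted p from 0.137 to 0.238). Left out one at a time, arrays also ended these calls. That of Lrrc15 ended on leaving out Old CR array 2, 3 or 4 or Old ND array 1 or 3 (adjusted p 0.0553 to 0.0696), that of Tnmd on leaving out any single array but Old ND array 4 or 5 (adjusted p 0.0513 to 0.104), and that of Actn1 on leaving out Old ND array 1 or 3 (adjusted p 0.051 to 0.0572). Aqp1 was no longer called on leaving out Old CR array 2, 3 or 4 or Old ND array 1 or 3 (adjusted p 0.0571 to 0.0869), Fscn1 on leaving out Old CR array 2 or 4 or Old ND array 1 (adjusted p 0.0508 to 0.0541) and F2r on leaving out any single array but Old CR array 5 or Old ND array 2, 4 or 5 (adjusted p 0.058 to 0.0996). The highest array mean of 2 marker lists also lay in Old ND, and the part of either list in the falls was not tested. The mean level of 14 measured tendon-like and contractile genes was 6.09 to 6.27 on Old CR arrays and 6.08 to 7.07 on Old ND arrays. Only Tnmd of that list passed (7.14% called, against 2.39% over all genes). The mean of 19 dermal papilla and sheath genes lay between 5.53 and 5.55 in Old CR and between 5.54 and 6.17 in Old ND. Only Fgf10 of that list passed (5.26% called), so the list holds none of the 6 genes above.

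The major fibrillar collagens of the dermis did not pass. Col1a1 averaged 12.83 ± 0.07 in Old CR and 12.85 ± 0.16 in Old ND (-0.02 ± 0.08, adjusted p = 0.936), near the highest value of any array (13.46). Col1a2 (0.29 ± 0.18, adjusted p = 0.488) and Col3a1 (-0.08 ± 0.07, adjusted p = 0.664) did not pass either. Of 11 measured fibrillar collagens 1 fell and 0 rose (9.09% called, against 2.39% over all genes), with a median of -0.08. It was Col27a1, a minor fibrillar collagen best known from cartilage, at 5.61, 5.78, 5.80, 5.79 and 5.45 in Old CR and 6.28, 6.13, 6.51, 6.01 and 6.06 in Old ND. It fell by 0.51 ± 0.10 (adjusted p = 0.00825) without overlap, and the call held, but ended with Old ND replicates 1 and 3 both left out (-0.38, adjusted p = 0.0764). None of 23 genes for collagen processing, 13 small leucine-rich proteoglycans and 19 genes of hyaluronan and other proteoglycans passed in limma, with 6, 2 and 1 of them at an unadjusted p under 0.05.

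Of 17 collagen VI and fibril-associated genes 1 fell and 0 rose (5.88% called, against 2.39% over all genes), 15 differences were below 0, and the median was -0.14 (-0.22 in run A and -0.04 in run B). Col6a3, the long chain of collagen VI, was at 8.92, 8.86, 8.97, 8.38 and 8.73 in Old CR and 10.36, 9.55, 10.76, 9.63 and 9.15 in Old ND and fell by 1.12 ± 0.25 (adjusted p = 0.0212). It lost the call on leaving out Old CR array 4 or Old ND array 1 or 3 (adjusted p 0.0523 to 0.0651). The partner chains Col6a1 (-0.51 ± 0.14, adjusted p = 0.0672) and Col6a2 (-0.72 ± 0.22, adjusted p = 0.101) did not pass, though they did with a term for the run (adjusted p = 0.0159 and 0.0254). Col8a2 (-1.66 ± 0.46, adjusted p = 0.0626) and Col14a1 (-1.19 ± 0.39, adjusted p = 0.122) showed large differences and large spread, with SDs of 1.41 and 0.98 in Old ND. Of 19 basement membrane genes 1 rose and 2 fell (15.8%). Col15a1, of the zone beneath basement membranes, was at 9.96, 9.81, 9.60, 9.99 and 9.98 in Old CR and 10.76, 10.53, 10.80, 10.48 and 10.23 in Old ND and fell by 0.69 ± 0.14 (adjusted p = 0.01) without overlap. Its call held, and it ended with Old ND replicates 1 and 3 both left out (-0.55, adjusted p = 0.0998). Col4a1 fell by 0.69 ± 0.16 (adjusted p = 0.0275), a call that ended on leaving out Old CR array 2, 3 or 4 or Old ND array 1 or 3 (adjusted p 0.0562 to 0.0795) and for the average of its 2 probe sets (adjusted p = 0.127). Its partner chain Col4a2 missed the threshold (-1.06 ± 0.29, adjusted p = 0.0529) and passed with a term for the run (adjusted p = 0.00326). The kidney-type chain Col4a4 rose by 0.40 ± 0.09 (adjusted p = 0.0221), and its call ended on leaving out Old CR array 1, 3 or 4 or Old ND array 1 or 3 (adjusted p 0.0501 to 0.0658) and for the average of its 2 probe sets (adjusted p = 0.0535).

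Of 23 matricellular and adhesion proteins 1 rose and 3 fell, Postn among the latter (17.4% called, against 2.39% over all genes). Ccn5 (WISP2), a secreted protein of the CCN family, was at 6.94, 6.61, 6.57, 6.98 and 7.01 in Old CR and 7.96, 7.95, 7.37, 7.49 and 8.14 in Old ND. It fell by 0.96 ± 0.16 (1.95-fold, adjusted p = 0.00393), a call that held, with differences of -0.98 in run A and -0.80 in run B, where it did not pass. Its relative Ccn2 (CTGF), a target of TGF-beta, fell by 0.51 ± 0.13 (adjusted p = 0.0482), and the call ended on leaving out any single array but Old CR array 5 or Old ND array 2 (adjusted p 0.0577 to 0.126). Thbs3, a thrombospondin, was at 9.07, 9.20, 8.85, 8.80 and 8.64 in Old CR and 8.46, 8.11, 8.16, 8.39 and 8.46 in Old ND and rose by 0.60 ± 0.12 (adjusted p = 0.01) without overlap. This call held, and missed the threshold with Old ND replicates 1 and 3 both left out (0.59, adjusted p = 0.053). Tnc (tenascin C) differed by -1.36 ± 0.56 (adjusted p = 0.246), with 6.72, 4.98, 7.46, 4.50 and 4.73 in Old ND and 4.16 to 4.62 in Old CR. Of 16 elastic fibre genes 1 rose and 1 fell (12.5% called). Mfap4, a microfibril protein, fell by 0.76 ± 0.17 (adjusted p = 0.0199), and Fbn2, the fibrillin of early development, rose by 0.59 ± 0.15 (adjusted p = 0.0439). The call of Mfap4 ended on leaving out Old CR array 3 or Old ND array 1 (adjusted p 0.0547 to 0.0586), and that of Fbn2 on leaving out any single array but Old CR array 4 or Old ND array 1 or 3 (adjusted p 0.0512 to 0.121). Of 39 matrix proteases and inhibitors 2 rose and 0 fell (5.13% called). They were Ctla2a and Adamtsl1, a secreted relative of the ADAMTS proteases without protease activity, which rose by 0.68 ± 0.18 (adjusted p = 0.0456) with overlap. The call of Adamtsl1 ended on leaving out any single array but Old CR array 5 or Old ND array 2, 4 or 5 (adjusted p 0.0904 to 0.126) and for the average of its 3 probe sets (adjusted p = 0.109).

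**Figure D4:**
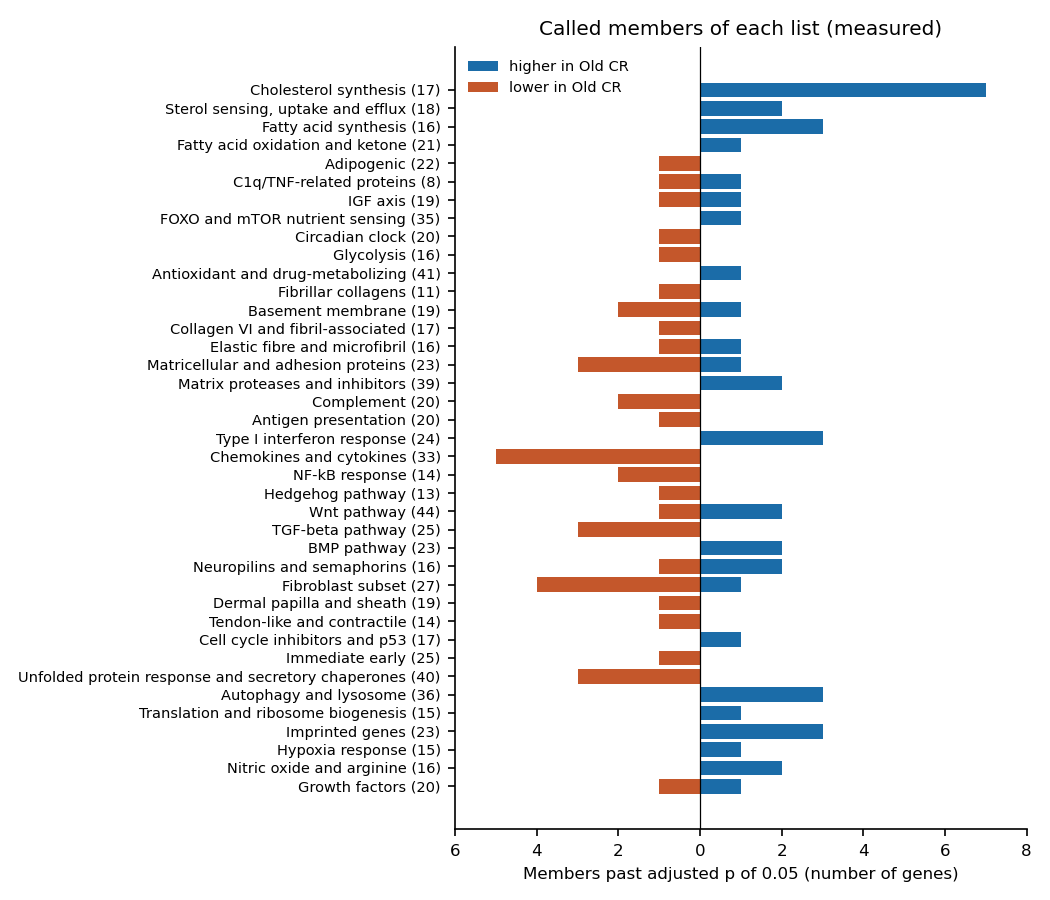
Bars count the members of each pathway list past an adjusted p of 0.05, to the right in blue for genes higher in Old CR and to the left in orange for genes lower in Old CR, with the number measured in brackets. Only lists with at least 1 such gene are drawn, a gene may stand in several lists, and cholesterol synthesis has the longest bar with 7 genes.

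Of 44 measured Wnt pathway genes 2 rose and 1 fell, 6.82% called against 2.39% over all genes, with a median of -0.08. Lgr5, the receptor for R-spondins that strengthens Wnt signals and marks stem cells of several epithelia, was at 8.79, 9.58, 8.78, 8.48 and 8.21 in Old CR and 7.73, 6.87, 6.87, 7.26 and 6.92 in Old ND. It rose by 1.64 ± 0.25 (3.11-fold, adjusted p = 0.00192), and by 1.07 for the average of its 2 probe sets. Dkk2, an antagonist that binds the Wnt coreceptors, was at 5.62, 5.86, 6.12, 6.13 and 6.25 in Old CR and 8.44, 7.57, 8.68, 7.50 and 7.23 in Old ND and fell by 1.89 ± 0.29 (3.7-fold, adjusted p = 0.00214). Both calls held and neither gene overlapped between the groups. The secreted antagonist Sfrp1 rose by 1.01 ± 0.25 (adjusted p = 0.0373), from 7.67, 7.08, 6.68, 8.43 and 7.92 in Old ND, where the arrays of run B were higher than those of run A. Its call ended on leaving out any single array but Old CR array 5 or Old ND array 4 or 5 (adjusted p 0.0603 to 0.111), and the difference was 1.52 in run A and 0.00 in run B. Wif1, another secreted antagonist, differed by -1.20 ± 0.33 (adjusted p = 0.0559), with 5.04, 4.13, 6.35, 4.16 and 3.54 in Old ND and 3.36 to 3.59 in Old CR, where every array lay at or below the lower quartile of all genes.

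In the Hedgehog pathway 1 of 13 genes passed (7.69%, against 2.39% over all genes). It was the receptor and target Ptch1, which fell by 0.89 ± 0.23 (adjusted p = 0.0395). Its call ended on leaving out any single array but Old ND array 2, 4 or 5 (adjusted p 0.0535 to 0.104) and for the average of its 2 probe sets (adjusted p = 0.089). The target Gli1 was at 6.46, 6.30, 6.44, 6.13 and 5.96 in Old CR and 8.13, 7.03, 8.67, 6.61 and 6.35 in Old ND, again highest in replicates 1 and 3, and missed the threshold (-1.10 ± 0.36, adjusted p = 0.117) except with a term for the run (adjusted p = 0.0209). Of 25 TGF-beta pathway genes 0 rose and 3 fell (12% called, against 2.39% over all genes), with a median of -0.02. They were Postn, Lrrc15 and Ccn2, and of these only the call of Postn held. With Old ND replicates 1 and 3 both left out, no gene of the list was called. Of 23 BMP pathway genes 2 rose and 0 fell (8.7% called). Bmp7, a ligand, rose by 0.67 ± 0.15 (adjusted p = 0.0223), and Grem1, which binds and blocks BMP ligands, by 0.78 ± 0.20 (adjusted p = 0.0405). The call of Bmp7 ended on leaving out Old CR array 2 or 3 or Old ND array 1 (adjusted p 0.0504 to 0.0652) and for the average of its 3 probe sets (adjusted p = 0.109), and that of Grem1 on leaving out any single array but Old CR array 1 or Old ND array 2 or 5 (adjusted p 0.0535 to 0.123). Id1, a direct target of BMP signals, was at 6.65, 6.57, 6.65, 6.30 and 6.55 in Old CR and 8.62, 7.13, 8.20, 7.10 and 6.81 in Old ND (-1.03 ± 0.27, adjusted p = 0.0518). The groups did not overlap, and Id1 passed with a term for the run (adjusted p = 0.00791) and under 6 other ways of processing all arrays or run A.

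Of 20 growth factors and their receptors 1 rose and 1 fell. Fgf10, a growth factor that dermal cells send to epithelium, was at 6.16, 5.86, 5.90, 5.81 and 5.90 in Old CR and 6.89, 6.95, 7.06, 6.49 and 6.21 in Old ND and fell by 0.79 ± 0.14 (adjusted p = 0.00562) without overlap. It held, and ended with Old ND replicates 1 and 3 both left out (-0.62, adjusted p = 0.0692). Egfr rose by 0.60 ± 0.14 (adjusted p = 0.0296), a call that ended on leaving out any single array but Old CR array 5 or Old ND array 1, 3 or 4 (adjusted p 0.0596 to 0.0832). Guidance molecules gave 3 held calls among 16 neuropilins and semaphorins (18.8% called). Nrp1, a coreceptor for class 3 semaphorins and vascular endothelial growth factor, was at 7.46, 7.43, 7.58, 7.71 and 8.10 in Old CR and 8.98, 8.53, 9.30, 9.04 and 8.33 in Old ND, and it fell by 1.18 ± 0.17 (2.27-fold, adjusted p = 0.00146). Of the secreted ligands 2 rose. Sema3b was at 8.94, 8.66, 8.77, 8.94 and 8.54 in Old CR and 7.62, 8.02, 7.59, 8.26 and 8.17 in Old ND and rose by 0.84 ± 0.13 (adjusted p = 0.00235), and Sema3d rose by 0.60 ± 0.12 (adjusted p = 0.0135) at a level of 4.81 in Old CR and 4.21 in Old ND, the latter below the lower quartile of all genes. None of the 3 overlapped between the groups, and Sema3d did not pass with Old ND replicates 1 and 3 both left out (0.56, adjusted p = 0.079).

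Chemokines and cytokines were lower in Old CR where they changed: of 33 measured genes 0 rose and 5 fell, 15.2% against 0.819% lower over all genes. The median difference was -0.11, and 25 of 33 were below 0. Cxcl2, which draws neutrophils, was at 3.91, 4.56, 4.10, 4.06 and 5.03 in Old CR and 6.46, 4.81, 7.08, 6.81 and 6.05 in Old ND. It fell by 1.91 ± 0.32 (3.76-fold, adjusted p = 0.00361), a call that held, and the groups overlapped through Old ND replicate 2. On 3 of the 5 Old CR arrays Cxcl2 lay below the lower quartile of all genes (4.54), so the fold is measured against a low level. Its neighbour and close relative Cxcl1 was at 6.62, 7.52, 7.61, 6.50 and 8.35 in Old CR and 8.47, 7.36, 8.66, 8.98 and 8.51 in Old ND and fell by 1.08 ± 0.28 (adjusted p = 0.0487). The call of Cxcl1 ended on leaving out any single array but Old CR array 5 or Old ND array 2 (adjusted p 0.07 to 0.15) and when arrays were centred on their medians (adjusted p = 0.0548). Both are textbook targets of NF-kB, and their promoters are shown because the genes lie side by side and fell together. Each line gives 100 bases of the RefSeq sequence of GRCm38.p6, from -130 to -31 counted from the start of the gene, 5′ to 3′ on the plus strand. Capitals mark matches, on either strand, to an NF-kB motif: GGG, then any 2 bases, then TTTCC.

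Cxcl1, chr5:90891115-90891214: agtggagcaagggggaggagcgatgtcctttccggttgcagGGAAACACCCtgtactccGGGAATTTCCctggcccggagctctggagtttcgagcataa

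Cxcl2, chr5:90903769-90903868: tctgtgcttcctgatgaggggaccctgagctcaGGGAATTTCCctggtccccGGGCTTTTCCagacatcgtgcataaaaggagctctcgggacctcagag

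Cxcl1 has a match at -71 on the plus strand and at -89 on the minus strand, and Cxcl2 has matches at -97 and -78 on the plus strand, counted to the first base of the match from the start of the gene. The motif was searched on both strands of 32851 promoters of 300 bases and found in 535 (1.63%). In the gene lists a gene counted if any of its promoter entries had a match, so their shares cannot be set directly against this share of promoters. The motif was found in 5 of the 25 chemokine and cytokine genes with a promoter entry (20.0%). They are Cxcl1, Cxcl2 and 3 that did not pass: Il6 (0.53 ± 0.28, adjusted p = 0.403), Csf1 (-0.04 ± 0.31, adjusted p = 0.976) and Il1rn (-0.02 ± 0.08, adjusted p = 0.939). Of the 11 NF-kB response genes with an entry 3 have a match (27.3%), Tnfaip3, Nfkb2 and Nfkbia, and of these Nfkb2 (0.42 ± 0.18, adjusted p = 0.273) and Nfkbia (0.04 ± 0.08, adjusted p = 0.888) did not pass. Il6, Csf1, Il1rn, Nfkb2 and Nfkbia were named after their values were seen. A match is a string of letters and not a measured binding site.

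Cx3cl1 (fractalkine), a chemokine that stays on the membrane until it is shed, was at 8.65, 8.53, 8.57, 8.50 and 8.45 in Old CR and 9.68, 9.40, 9.31, 9.08 and 9.14 in Old ND. It fell by 0.78 ± 0.14 (adjusted p = 0.00489) without overlap, and the call held. The alarm cytokine Il33 fell by 0.32 ± 0.07 (adjusted p = 0.0199) at a level of 3.50 to 3.83, far down the scale, and the call ended on leaving out Old CR array 2 or Old ND array 1 (adjusted p 0.0572 to 0.06). Ccl19, which guides lymphocytes and dendritic cells, fell by 0.48 ± 0.13 (adjusted p = 0.0484), and the call ended on leaving out any single array but Old CR array 5 or Old ND array 3 (adjusted p 0.0598 to 0.144). Named after their values were seen, Ccl2 (-0.15 ± 0.22, adjusted p = 0.833) and Cxcl12 (-0.08 ± 0.25, adjusted p = 0.932) did not pass. Of 14 NF-kB response genes 0 rose and 2 fell (14.3% called, against 2.39% over all genes), with a median of 0.03. The adhesion molecule Vcam1 was at 6.15, 6.49, 6.54, 5.79 and 7.08 in Old CR and 8.09, 6.96, 7.79, 7.83 and 7.79 in Old ND and fell by 1.28 ± 0.28 (adjusted p = 0.0199), and the call ended on leaving out Old CR array 1 or 4 or Old ND array 1 (adjusted p 0.0508 to 0.0635). Tnfaip3, a brake on NF-kB, fell by 0.86 ± 0.23 (adjusted p = 0.0484). Its call ended on leaving out any single array but Old CR array 3 or 5 or Old ND array 2 or 5 (adjusted p 0.0623 to 0.144), when arrays were centred on their medians (adjusted p = 0.0546) and for the average of its 2 probe sets (adjusted p = 0.135).

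Of 20 complement genes 0 rose and 2 fell, 10% called against 2.39% over all genes. Masp1, a protease of the lectin pathway, was at 7.49, 7.71, 7.74, 7.76 and 7.68 in Old CR and 8.90, 8.18, 9.13, 8.22 and 8.05 in Old ND and fell by 0.82 ± 0.16 (adjusted p = 0.00934) without overlap. Its call held, but ended for the average of its 5 probe sets (-0.40, adjusted p = 0.0768) and with only the 10 arrays fitted (adjusted p = 0.063). Cd59a, which blocks the membrane attack complex, fell by 0.57 ± 0.14 (adjusted p = 0.0276), and the call ended on leaving out any single array but Old ND array 4 or 5 (adjusted p 0.0516 to 0.0763) and for the average of its 2 probe sets (adjusted p = 0.0675). Of 20 antigen presentation genes 1 fell and 0 rose (5.00%), with 13 differences below 0. The median was -0.01 for 9 class I and processing genes and -0.41 for 11 class II and interferon gamma response genes. Of those 11, 8 were below 0 and 6 had an unadjusted limma p under 0.05. With Old ND replicates 1 and 3 both left out 4 of the 11 were called lower (median -0.56). H2-Ab1, a class II chain, differed by -1.03 ± 0.30 on all arrays (adjusted p = 0.074). Cd74, the invariant chain of class II molecules, fell by 0.61 ± 0.15 (adjusted p = 0.0276), and its call ended on leaving out Old CR array 2, 3 or 4 or Old ND array 4 or 5 (adjusted p 0.0562 to 0.0898). Cd74 is also a macrophage marker. The other 11 measured macrophage and dendritic markers did not pass, 5 of the 12 lay at or below the lower quartile of all genes, and the mean of the list was 5.12 to 5.24 in Old CR arrays and 5.20 to 5.45 in Old ND arrays. The part of such cells in the fall was not tested.

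The type I interferon response gave 3 calls among 24 genes (12.5%, against 2.39% over all genes), all of them rises, and 8 differences were below 0. The median was 0.22, with 0.36 in run A and 0.05 in run B. With Old ND replicates 1 and 3 both left out the median was 0.04 and the 3 calls ended. Ifit2, which curbs translation of viral RNA, was at 5.18, 5.37, 5.51, 5.95 and 6.27 in Old CR and 4.52, 4.44, 4.78, 5.00 and 4.82 in Old ND and rose by 0.94 ± 0.21 (adjusted p = 0.0178). The transcription factor Irf7 rose by 0.49 ± 0.11 (adjusted p = 0.0255), and Usp18, which removes ISG15 from proteins, by 0.79 ± 0.20 (adjusted p = 0.0409). The call of Ifit2 ended on leaving out Old CR array 4 (adjusted p = 0.0558), that of Irf7 on leaving out Old CR array 1 or 2 or Old ND array 2 or 3 (adjusted p 0.0589 to 0.0748), and that of Usp18 on leaving out any single array but Old CR array 5 or Old ND array 4 or 5 (adjusted p 0.0588 to 0.111).

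Among stress pathways the few called genes of the unfolded protein response fell and those of autophagy rose. Of 40 measured genes for this response and for secretory chaperones 0 rose and 3 fell (7.5% called, against 2.39% over all genes). The median was 0.02, with 23 differences above 0 and 17 below. Creld2, a secreted chaperone induced by endoplasmic reticulum stress, was at 8.90, 8.55, 8.43, 8.61 and 9.24 in Old CR and 9.24, 9.42, 9.66, 9.55 and 9.88 in Old ND. It fell by 0.80 ± 0.15 (adjusted p = 0.00883), a call that held, with Old CR replicate 5 at the level of the lowest Old ND array. Manf, another secreted factor induced by that stress, fell by 0.61 ± 0.14 (adjusted p = 0.0215), and Herpud1, of the protein degradation machinery in the membrane of that organelle, by 0.47 ± 0.11 (adjusted p = 0.0315). The call of Manf ended on leaving out Old CR array 3 or 4 or Old ND array 1 or 3 (adjusted p 0.0566 to 0.0708). That of Herpud1 ended on leaving out any single array but Old CR array 5 or Old ND array 2 (adjusted p 0.0583 to 0.104) and for the average of its 2 probe sets (adjusted p = 0.123). Of 36 autophagy and lysosome genes 3 rose and 0 fell (8.33% called), with a median of 0.10. They were Atg7, which activates the proteins that build the autophagosome (0.46 ± 0.10, adjusted p = 0.0156), Atg16l1 of the same machinery (0.42 ± 0.11, adjusted p = 0.0387) and the mitophagy receptor Bnip3 (0.82 ± 0.18, adjusted p = 0.0213). None of the 3 overlapped between the groups. The call of Atg7 ended on leaving out Old CR array 2 (adjusted p = 0.051), that of Atg16l1 on leaving out any single array but Old CR array 4 or 5 or Old ND array 3 or 5 (adjusted p 0.0565 to 0.104), and that of Bnip3 on leaving out Old CR array 2, 3 or 4 or Old ND array 1 or 3 (adjusted p 0.0537 to 0.062). For the average of its 4 probe sets the difference of Atg7 was 0.20 (adjusted p = 0.0345).

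None of 38 oxidative phosphorylation genes passed in limma, though 8 had an unadjusted p under 0.05, 34 differences were above 0 and the median was 0.13. Over all 17097 genes, 2477 had an unadjusted p under 0.05. Of 22 proteasome genes none passed, 11 had an unadjusted p under 0.05, 20 were above 0 and the median was 0.19. Branched-chain amino acid breakdown also had a median of 0.19, with 0 of 16 past the threshold and 6 at an unadjusted p under 0.05. None of 43 cytosolic ribosomal protein genes, 30 genes of DNA replication and mitosis and 19 glucocorticoid-responsive genes passed in limma. Of these 0, 2 and 4 had an unadjusted p under 0.05, and the medians were 0.00, -0.03 and -0.04. Of 16 glycolysis genes 1 fell (6.25% called, against 2.39% over all genes). It was the enolase isoform Eno2, at 5.35, 5.73, 5.87, 5.61 and 6.28 in Old CR and 7.06, 6.19, 7.32, 6.76 and 6.68 in Old ND (-1.03 ± 0.20, adjusted p = 0.00791). Its call held, and it ended with Old ND replicates 1 and 3 both left out (-0.78, adjusted p = 0.079). Of 20 clock genes 1 fell (5.0% called), the output regulator Hlf (-0.55 ± 0.14, adjusted p = 0.0364). Its call ended on leaving out any single array but Old CR array 1 or Old ND array 4 or 5 (adjusted p 0.0558 to 0.1) and for the average of its 2 probe sets (adjusted p = 0.0762). The clock repressor Per1 (-0.38 ± 0.17, adjusted p = 0.281) did not pass. Of 25 immediate early genes, which respond to handling of tissue, 1 fell (4.0% called). It was Egr2 (-0.64 ± 0.13, adjusted p = 0.0119), which did not overlap between the groups. Its call held, and it ended with Old ND replicates 1 and 3 both left out (adjusted p = 0.0921) and with only the 10 arrays fitted (adjusted p = 0.063). Gadd45g, a growth arrest gene, rose by 0.57 ± 0.12 (adjusted p = 0.0166), 1 of 17 cell cycle inhibitors and p53 targets (5.88% called), and its call ended on leaving out Old CR array 3 or 4 (adjusted p 0.0537 to 0.0546). Cdkn1a (0.05 ± 0.07, adjusted p = 0.837) and Cdkn2a (0.03 ± 0.14, adjusted p = 0.954), 2 markers of senescent cells named after their values were seen, did not pass. In 2 further lists 1 gene rose and 0 fell: the alcohol dehydrogenase Adh1 (0.41 ± 0.10, adjusted p = 0.0373) of 41 antioxidant and drug-metabolizing genes (2.44% called), and the nucleolar protein Nop58 (0.44 ± 0.11, adjusted p = 0.0416) of 15 genes of translation and ribosome biogenesis (6.67% called). The call of Adh1 ended on leaving out any single array but Old CR array 5 or Old ND array 2, 4 or 5 (adjusted p 0.0552 to 0.124), and that of Nop58 on leaving out any single array but Old ND array 4 (adjusted p 0.0526 to 0.103).

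Genes that tell dermal fibroblast types apart moved in both directions. Of 27 measured subset genes 1 rose and 4 fell, 18.5% against 2.39% over all genes, with a median of 0.00. Dpp4 (CD26), a surface peptidase of upper dermal and fascia fibroblasts, was at 8.88, 8.95, 8.67, 8.78 and 8.54 in Old CR and 7.35, 7.90, 7.59, 8.35 and 8.05 in Old ND. It rose by 0.92 ± 0.17 (adjusted p = 0.00694) without overlap, a call that held and that ended with Old ND replicates 1 and 3 both left out (0.66, adjusted p = 0.071). The 4 that fell were Mgp, Igfbp4 and Col15a1, given above, and Prdm1 (Blimp1), a transcriptional repressor (-0.54 ± 0.13, adjusted p = 0.03), whose call ended on leaving out any single array but Old CR array 5 or Old ND array 2, 4 or 5 (adjusted p 0.0578 to 0.0805). None of the 10 general fibroblast markers passed in limma, with 1 at an unadjusted p under 0.05, and the mean of the list was 10.69 to 10.92 in Old CR arrays and 10.72 to 10.90 in Old ND arrays.

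Markers of other skin cells were measured beside these results. Of the 18 cell marker lists, 3 held a called gene: Kcnj8 and Cd74, given above, and Sox9, a hair follicle transcription factor that fell by 0.92 ± 0.23 (adjusted p = 0.0349). The call of Sox9 ended on leaving out any single array but Old CR array 5 or Old ND array 2, 4 or 5 (adjusted p 0.0656 to 0.0964) and for the average of its 3 probe sets (adjusted p = 0.0777). The mean of 8 hair follicle genes was 4.35 to 4.50 in Old CR arrays and 4.47 to 4.74 in Old ND arrays. The keratinocyte genes Krt5 and Krt14 lay above the median gene level (5.88) on every array of both groups and were uneven within Old ND. Krt5 lay at 10.49, 7.77, 7.60, 7.88 and 9.69 in Old ND and at 8.25, 8.95, 8.34, 8.81 and 9.12 in Old CR, with a difference of 0.01 ± 0.46 (adjusted p = 0.996). Krt14 differed by -0.46 ± 0.37 (adjusted p = 0.648). The mean of 10 basal keratinocyte genes was 6.25 to 6.70 in Old CR arrays and 5.78 to 7.50 in Old ND arrays. Of the genes sorted against, Ptprc and Kit lay between 3.18 and 3.45 on all 10 arrays, at or below the lower quartile of all genes. Other immune markers averaged above the median gene level in both groups. Among them were Cd68 (7.76 in Old CR and 7.67 in Old ND), Csf1r (6.71 and 6.48), Cd74 (6.33 and 6.94), Cd79a (6.88 and 6.70) and Cma1 (6.53 and 6.64). At or below the lower quartile lay 5 of 12 macrophage and dendritic, 2 of 8 lymphocyte, 4 of 7 mast cell and 2 of 4 neutrophil markers.

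Mice that had been returned to a normal diet were the other group set against Old CR. This comparison shares the Old CR arrays with the one above, so their calls are not independent. Between Old CR and Old CR-ND 57 genes passed, 0.333% of those tested, with 36 higher (0.211%) and 21 lower (0.123%) in Old CR. Of these calls 17 held when each Old CR and each Old CR-ND array was left out in turn, a check chosen after the data were seen, in which the count ranged from 17 without Old CR replicate 3 to 110 without Old CR replicate 5. Ctla2a averaged 7.03 ± 0.65 in Old CR-ND, close to 7.15 ± 0.07 in Old ND, against 10.03 ± 0.78 in Old CR, and the test of Old CR against Old CR-ND called it (adjusted p = 4.74e-05). Lgr5 averaged 6.80 ± 0.41 in Old CR-ND, against 8.77 ± 0.51 in Old CR (1.97 ± 0.25, adjusted p = 0.00071). Of the 17 cholesterol synthesis genes 3 were higher and 0 lower in Old CR, 17.6% against 0.211% higher over all genes. Fdps averaged 5.77 ± 0.22 in Old CR-ND (1.02 ± 0.15, adjusted p = 0.00617), and Nsdhl differed by 0.72 ± 0.12 (adjusted p = 0.00959). Creld2 was lower in Old CR (-0.92 ± 0.15, adjusted p = 0.00959). The calls of these 5 genes held.

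Other calls against Old CR-ND depended on single arrays. Stard4 was higher in Old CR (0.99 ± 0.17, adjusted p = 0.00962) and Ccn5 lower (-0.95 ± 0.16, adjusted p = 0.00973), and both calls ended without Old CR replicate 3 (adjusted p = 0.0532 and 0.0534). Igfbp3 averaged 6.77 ± 1.10 in Old CR-ND and was higher in Old CR by 2.50 ± 0.45 (adjusted p = 0.0142). The call of Igfbp3 ended without any 1 of Old CR replicates 2 and 3 and Old CR-ND replicates 4 and 5 (adjusted p from 0.0517 to 0.0612). Fdft1 was higher in Old CR by 0.60 ± 0.11 (adjusted p = 0.0226), and its call ended without any 1 of Old CR replicates 1, 3 and 4 and Old CR-ND replicates 2, 4 and 5 (adjusted p from 0.0518 to 0.0859). The calls of Insig1 (0.77 ± 0.15), Col15a1 (-0.65 ± 0.14), C1qtnf12 (-0.67 ± 0.14) and Herpud1 (-0.54 ± 0.11) each ended without any 1 of 8 of the 10 arrays, Old CR replicates 1 to 4 among them (adjusted p from 0.0558 to 0.147).

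Other genes had a level in Old CR-ND that lay near that of Old CR. Cmah averaged 6.61 ± 0.44 in Old CR-ND, 6.80 ± 0.53 in Old CR and 5.00 ± 0.52 in Old ND, with a difference of Old CR from Old CR-ND of 0.19 ± 0.27 (adjusted p = 0.874). Sema3b averaged 8.68 ± 0.16, 8.77 ± 0.18 and 7.93 ± 0.31 in the same order (0.09 ± 0.13, adjusted p = 0.886). Esr1, the estrogen receptor, named after its values were seen, rose against Old ND by 0.74 ± 0.14 (adjusted p = 0.00791) and averaged 10.26 ± 0.16 in Old CR-ND and 10.31 ± 0.31 in Old CR (0.05 ± 0.14, adjusted p = 0.948). The call of Esr1 against Old ND held, and it ended with Old ND replicates 1 and 3 both left out (0.61, adjusted p = 0.079). Rian lay between, at 9.22 ± 0.14 (0.54 ± 0.13, adjusted p = 0.08), and so did Mgp, at 8.32 ± 0.28 (-1.11 ± 0.25, adjusted p = 0.058), and Igfbp4, at 8.68 ± 0.70 (-1.80 ± 0.45, adjusted p = 0.0889). In the test of Old CR-ND against Old ND, Rian alone passed, and Cmah, Sema3b, Esr1, Mgp and Igfbp4 did not. That Cmah, Sema3b and Esr1 stayed changed after the return to normal diet is therefore not shown by a test. A p that misses the threshold does not show that the restricted and the returned mice had the same level, and whether these genes differ from the sterol genes in their return was not tested. In Young ND the averages were 6.07 ± 0.29 for Ctla2a, 5.49 ± 0.43 for Lgr5, 5.77 ± 0.21 for Fdps, 7.88 ± 0.32 for Ccn5, 10.77 ± 0.11 for Rian, 7.70 ± 0.37 for Cmah, 9.41 ± 0.21 for Sema3b and 10.40 ± 0.23 for Esr1. The Old CR mean thus lay farther from the Young ND mean than the Old ND mean did for Ctla2a, Lgr5, Fdps and Ccn5, and nearer for Rian, Cmah, Sema3b and Esr1.

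**Figure D5:**
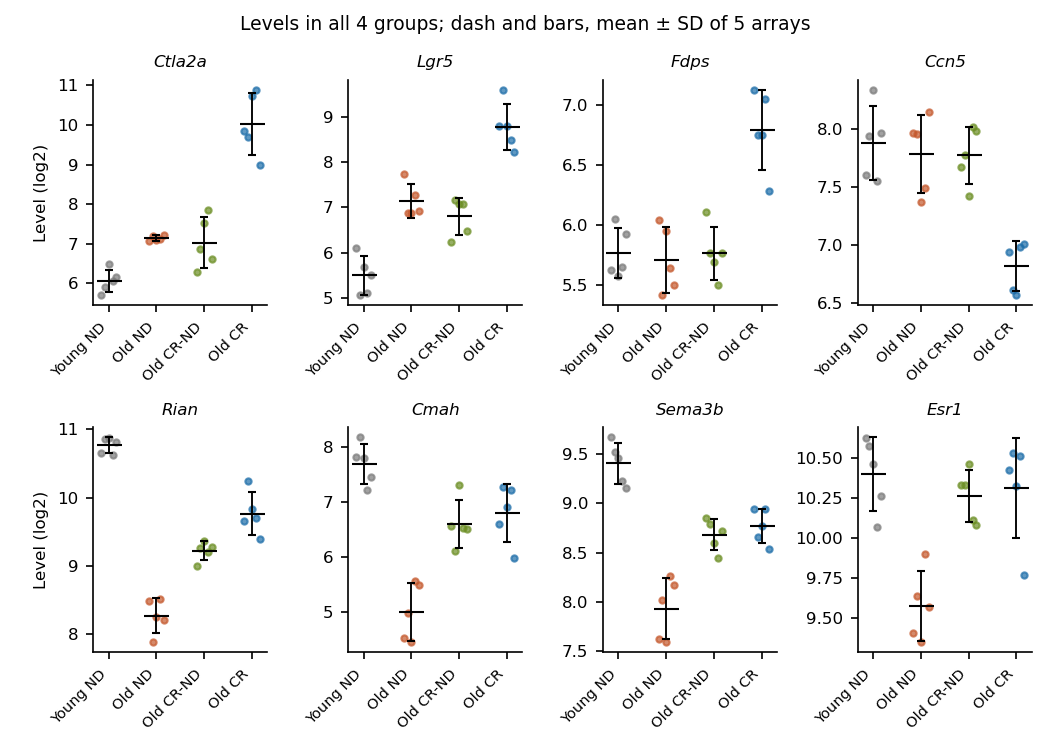
Log2 levels of 8 genes on the 5 arrays of each of the 4 groups (points), with the mean ± SD in black. In the upper row (Ctla2a, Lgr5, Fdps, Ccn5) Old CR-ND lies near Old ND, and in the lower row Old CR-ND lies near Old CR (Cmah, Sema3b, Esr1) or between the 2 (Rian).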

How the data were processed

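The authors deposited log2 expression values of 20 arrays. Per the submitters' processing notes they were made with RMA and the R package affy, whose versions are not given in the sources used here. RMA gives all arrays about the same distribution (medians 5.27 to 5.34), so a shift shared by all genes cannot be seen. Arrays have no read depth, and 5 arrays per group limit the precision. Whether replicates came from separate mice is not stated, so p-values measure the spread between these samples.

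Of 45141 probe sets, 28898 are annotated to 1 gene, 551 to several and 15692 to none. Symbols were updated through RefSeq (GRCm38.p6), and the probe set with the highest mean was kept for each of 17097 genes. limma 3.58.1 (R 4.3.3) fitted 1 mean per group to all 20 arrays, with Benjamini-Hochberg adjustment. The fit was tested on simulated data. Named genes are the 15 largest rises and 15 largest falls among called genes above the median level without clone symbols, up to 8 called members of each list by adjusted p, up to 4 others by size of difference, and any member of the cholesterol, IGF, Dlk1-Dio3, clock, collagen and cell marker lists. Any others were picked with their values in view, as the text says. Members and lists were chosen with earlier results of these data known. Replicates are numbered in accession order. Alternatives were other probe set rules, filters on dim genes, normalizations and variance models, the run of array numbers as a block, each run alone, and leaving out arrays.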

Additional observations from a re-analysis of the deposited data

Results flagged for a closer look

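On 13 of 298 occasions 1 array of a group stood apart from the other 4 by Dixon's test, whose limit chance passes in about 1 of 20 groups. Old CR replicate 4 was the highest for C1qtnf3 (9.19, the next 8.55 and the lowest 8.35), Cyp51 (9.29, the next 9.02) and Hmgcs1 (4.51, the next 4.26), and the lowest for Id1 (6.30, the next 6.55). Old CR replicate 5 was the lowest for Egfr (9.51, the next 9.96), Esr1 (9.77, the next 10.32) and Nsdhl (6.70, the next 7.10). Old CR replicate 1 was the highest for Fgf10 (6.16, the next 5.90) and Sema4a (6.73, the next 6.37). Old ND replicate 2 was the lowest for Fasn (7.26, the next 7.66) and Vcam1 (6.96, the next 7.79). Old ND replicate 3 was the lowest for Pecam1 (5.54, the next 5.67), and Old ND replicate 1 was the highest for Nfkbia (12.32, the next 12.04).

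Probe sets that name no gene or several were not used in the comparisons. Fitted on their own with limma, 145 of 16139 (0.898%) differed between Old CR and Old ND, 86 higher and 59 lower in Old CR.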

How the results depend on the processing

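The count of called genes moved with the samples and the model more than with the normalization. Against 409 (269 higher and 140 lower in Old CR), 615 probe sets were called one by one (217 lower), 191 genes with only the 10 arrays fitted (137 higher, 54 lower), 711 with the run as a block (451 and 260), 795 in run A (536 and 259) and 1 in run B (0 and 1). With Old ND replicates 1 and 3 both left out, a choice made after the data were seen, 131 were called (95 and 36). An adjusted p under 0.1 called 725 (491 and 234), one under 0.01 called 98 (66 and 32), and 55 also changed at least 2-fold (24 and 31). Leaving out 1 array gave 201 to 498 genes, 135 to 365 higher and 63 to 194 lower, and the arrays that moved the total past 1.5 times were Old CR replicates 1 to 4 and Old ND replicates 1 and 3. Quantile normalization once more gave 227 higher and 179 lower, and without Old ND replicate 2 there were 183 and 158. Against Old CR-ND, 57 genes became 120 with the run as a block, 10 in run A, 1 in run B and 17 to 110 with 1 array left out.

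Of the 100 called genes named here, 100 kept their call with the run as a block, 93 with a second quantile normalization, 87 on averaging probe sets, 51 with only the 10 arrays fitted and 37 with Old ND replicates 1 and 3 both left out. None changed sign under the alternatives run, except 2 in run B, Sfrp1 (0.00, on the negative side) and Adamtsl1 (-0.04). The alternatives reuse arrays that chose these genes, so a kept sign is not a further test. The cause of the changes in calls and sign was not tested, beyond the smaller number of arrays in some alternatives. Replicate numbers follow accession order and the labels carry none, so no paired analysis was possible because nothing ties arrays across groups. Run B has 1 Old CR array, taken to have the spread of the other groups.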

Other observations

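Several genes outside the lists, chosen after their values were seen, also separated the groups. Btc (betacellulin), a ligand of the EGF receptor, was at 6.50, 6.60, 7.17, 6.94 and 6.70 in Old CR replicates 1 to 5 and 5.58, 5.84, 5.90, 6.03 and 5.94 in Old ND replicates 1 to 5, and rose by 0.92 ± 0.14 (1.9-fold, limma adjusted p = 0.00214). Tgm1, the transglutaminase best known from keratinocytes, was at 6.52, 6.94, 7.09, 6.45 and 5.88 in Old CR and 5.72, 5.65, 5.37, 5.45 and 5.49 in Old ND and rose by 1.04 ± 0.19 (adjusted p = 0.00554), while none of the 10 differentiated keratinocyte markers passed, and their mean was 5.40 to 5.86 in Old CR arrays and 5.12 to 6.34 in Old ND arrays. Ntrk3, the receptor for neurotrophin 3, was at 6.87, 6.20, 5.86, 5.93 and 6.10 in Old CR and 7.95, 7.49, 7.71, 7.17 and 6.97 in Old ND and fell by 1.27 ± 0.21 (2.4-fold, adjusted p = 0.00286). With the mean of its 7 probe sets Ntrk3 differed by -0.52. Irf8, a transcription factor of myeloid cells, was at 5.90, 5.80, 5.73, 5.80 and 5.74 in Old CR and 6.81, 6.12, 6.09, 6.44 and 6.45 in Old ND and fell by 0.59 ± 0.11 (adjusted p = 0.00725). Groups did not overlap for these 4 genes. Their calls held without each array and with Old ND replicates 1 and 3 both left out, and that of Irf8 ended in run A alone (adjusted p = 0.0544).

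Another 3 genes, also chosen after their values were seen, fell and were uneven within Old ND. For Sema4a the groups overlapped, with Old CR replicate 1 (6.73) above Old ND replicate 2 (6.44). Cd200, a surface protein that restrains myeloid cells, was at 3.84, 3.70, 3.90, 3.37 and 3.90 in Old CR and 5.61, 4.99, 6.72, 4.76 and 4.23 in Old ND (limma -1.52 ± 0.32, adjusted p = 0.0156), and all 5 Old CR arrays and Old ND replicate 5 lay below the lower quartile of all genes (4.54). Sema4a, a membrane semaphorin, was at 6.73, 6.37, 6.30, 6.25 and 6.37 in Old CR and 8.51, 6.44, 8.16, 7.52 and 7.40 in Old ND (-1.20 ± 0.25, adjusted p = 0.0153). Klf10, an early target of TGF-beta, fell by 0.97 ± 0.20 (adjusted p = 0.0125). The 3 calls held without each array in turn and ended with Old ND replicates 1 and 3 both left out (adjusted p = 0.0773, 0.104 and 0.114).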
